A study of Mus musculus with 9 samples.

Results

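Cadherins and protocadherins were described in the olfactory bulb of mice that breathed an odor mixture or clean air. The members are the rows of the deposited expression table whose gene symbols begin with Cdh and a digit, with Cdhr or with Pcdh, and whose mean over the 9 mice was at least 0.5 RPKM (reads per kilobase of transcript, scaled to library size). This rule found 53 rows among the 13990 rows of the table at that level, out of 59 rows with such a symbol and 27497 rows in all. All 53 members entered the tests, since the same floor was used there. The animals were C57/BL6 adults, 6 to 8 weeks old or more, and each of the 3 groups held 3 separate mice. Mice of the 30 min group were taken directly after 30 min of exposure to the odorants. In the 120 min group, the same 30 min exposure was followed by 90 min in clean air. The clean air group was kept in air from an activated carbon filter. Polyadenylated RNA of the dissected bulbs was sequenced from paired ends, and the series asks which transcripts respond, and how fast, to neuronal activity in the living animal.

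Cadherins are membrane proteins that bind each other in the presence of calcium and hold neighbouring cells together. Classical cadherins of types I and II bind catenins on the inside of the cell, which link them to actin, and different classical cadherins mark different cell groups and axon tracts in the brain. Protocadherins are the largest branch of the family. The clustered ones lie in the alpha, beta and gamma gene clusters, are expressed in varied combinations by single neurons and let a neuron tell its own neurites from those of others. The non-clustered ones, most of them called delta-protocadherins, are expressed in distinct cell groups and act in axon guidance and synapse maintenance. In the olfactory bulb the axons of sensory neurons end in glomeruli on mitral and tufted cells, and granule and periglomerular interneurons act on those cells through dendritic synapses.

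The libraries held an estimated 7.15 to 29.9 megareads, and 3 counts on a transcript of 3 kb came to between 0.0335 and 0.140 RPKM. Depth went with mouse number for mice 1 and 2. In the order 30 min, 120 min and clean air, mouse 1 had 8.82, 9.87 and 10.5 megareads. In the same order mouse 2 had 28.8, 24.1 and 22.2 megareads, and mouse 3 had 17.4, 7.15 and 29.9 megareads. The part of depth in patterns that follow mouse number was not tested. Summed markers of mitral and tufted cells other than the Cdhr1 gene were 889 to 1032 RPKM at 30 min, 995 to 1053 RPKM at 120 min and 917 to 1350 RPKM in clean air, while markers of frontal cortex excitatory neurons summed to 6.05 to 9.33 RPKM over all 9 mice. The libraries showed a response to the odor: all 8 immediate-early genes examined, among them Fos, Arc and Npas4, were called higher at 30 min than in clean air, with a median log2 difference of 3.15.

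Levels in the bulb differed widely between members, from 0.612 to 390 RPKM on average, with a median of 3.38 RPKM. No member was listed at 0 in any mouse, but the members were chosen by their level in these same mice. Of the 53 members, 14 averaged over 10 RPKM, 36 averaged 1 to 10 RPKM and 3 averaged under 1 RPKM. The members over 100 RPKM were both gamma cluster rows, at 390 and 158 RPKM, and Pcdh21 at 146 RPKM. Pcdh1 at 78.4 RPKM, Pcdh10 at 74.4 RPKM and Cdh22 at 45.2 RPKM followed. By class, the gamma cluster held 47.6% of the summed RPKM of all members, the 10 non-clustered protocadherins 18.9%, the 3 cadherins outside the classical types 14.3%, the 11 type II cadherins 9.18%, the 5 type I cadherins 3.91%, the 20 beta cluster genes 3.89% and the alpha cluster 2.27%. The genes of the gamma cluster share exons, as do those of the alpha cluster, and how reads on these were assigned is not known. The sums of these clusters may therefore count some reads more than once. Just above the floor lay Cdh12 at 0.612 RPKM and Cdh15 at 0.891 RPKM. The nearest rows under it were far lower, Pcdh12 at 0.12 RPKM and Cdh26 at 0.113 RPKM, and the other rows with a family symbol were Cdh17, Pcdhb1, Cdh16 and a second Pcdhb11 row, the last pair listed at 0 in every mouse. The table has further rows that only GENCODE M21 names as family genes, such as Cdh9, Cdhr3 and Pcdhb22 at 0.711, 1.70 and 3.16 RPKM, which the rule left out.

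**Figure D1:**
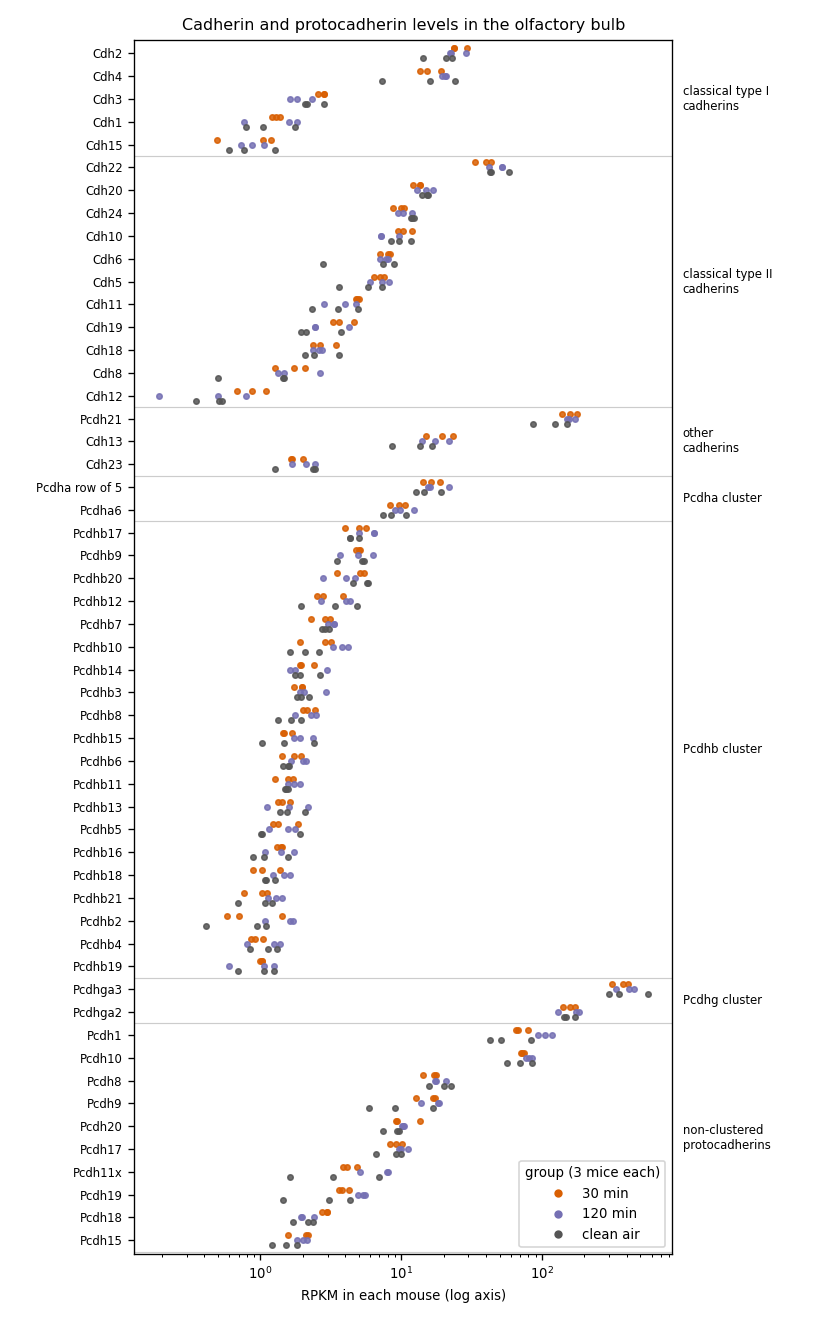
RPKM of each of the 53 members in each of the 9 mice on a log axis, grouped by class and ordered by mean, with 3 dots per group for 30 min, 120 min and clean air. The gamma cluster rows and Pcdh21 lie above 100 RPKM on average, and the beta cluster genes lie between means of 0.991 and 5.13 RPKM.

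Most members varied little between mice. In 30 of the 53 the highest of the 9 values was under 2 times the lowest, and in 8 it was over 3 times the lowest. Those 8 were Cdh12, Cdh8, Pcdh11x, Pcdhb2, Pcdh19, Cdh4, Cdh6 and Pcdh9, and in 7 of them a clean air mouse had the lowest value. Clean air mouse 2 was the lowest of the 9 libraries in 17 of the 53 members, a share of 32.1% against 17.0% of all tested genes. Clean air mouse 3 was the lowest in 11 members, a share of 20.8%. It was also the lowest in 24.2% of all tested genes, more than any other library. The library of 120 min mouse 2 was the highest in 17 members, against 8.61% of all tested genes.

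No cadherin or protocadherin passed the test in any comparison. Differences were tested with limma on log2(RPKM + 0.5), with p adjusted by Benjamini and Hochberg over all 13990 genes and a threshold of 0.05. At 30 min against clean air, 0 of 53 members were called, while 0.136% of all tested genes were called, and the lowest adjusted p of a member was 0.844. At 120 min against clean air, 0 members were called, while 0.0858% of all genes were called, and the lowest adjusted p of a member was 0.349. At 120 min against 30 min, 0 members were called, while 0.0572% of all genes were called, and the lowest adjusted p of a member was 0.998. The limma F test over the 3 groups called 0 members and 0.157% of all genes, with 3 members, or 5.66%, and 6.53% of all genes at an unadjusted p under 0.05.

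Without adjustment, the share of members with p under 0.05 was near or under that of all genes. It was 1 of 53 members at 30 min against clean air, where all genes gave 5.83%. It was 5 of 53, or 9.43%, at 120 min against clean air, where all genes gave 9.35%. It was 1 of 53 at 120 min against 30 min, where all genes gave 3.44%. The member at 30 min was Cdh13, those at 120 min against clean air were Pcdh1, Pcdh11x, Pcdh19, Pcdh9 and Pcdhb10, and the one at 120 min against 30 min was Pcdh1.

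Some members had groups that did not overlap. At 30 min against clean air, 4 members lay wholly higher (Cdh2, Cdh12, Pcdh18 and Pcdhb8) and 2 wholly lower (Cdh20 and Cdh24), where 7.09% and 4.12% of all genes did. At 120 min against clean air, 5 lay wholly higher (Pcdh1, Pcdh19, Pcdh20, Pcdhb6 and Pcdhb10) and 0 wholly lower, where 7.54% and 5.36% of all genes did. At 120 min against 30 min, 8 lay wholly higher (Pcdh1, Pcdh10, Pcdh11x, Pcdh19, Cdh4, Pcdhb10, Pcdhb15 and Pcdhb21) and 3 wholly lower (Cdh3, Cdh11 and Pcdh18), where 4.89% and 5.55% of all genes did. The 8 higher ones are 15.1% of the members, above the share of all genes, and the 3 lower ones are 5.66%, close to it.

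The 95% intervals of the fit show what size could have been missed, for each gene alone and without adjustment for the number of genes. Every one of the 53 fitted log2 differences lay within 1 of 0 in each comparison. The 95% intervals of limma reached 0.339 to 0.847 to either side of the estimate, with a median of 0.527. The upper limit lay under 1 on the log2(RPKM + 0.5) scale in 44 members at 30 min against clean air. It did so in 43 at 120 min against clean air and in 48 at 120 min against 30 min. For low genes, a limit under 1 on this scale can still exceed a doubling of RPKM. The lower limit reached -1.17 for Cdh12 at 120 min against 30 min and -0.97 for Pcdhb20 at 120 min against clean air. Both comparisons with clean air use the same 3 clean air mice, so their values are not independent. The median log2 difference of the members was 0.10 at 30 min and 0.19 at 120 min against clean air, and 0.10 at 120 min against 30 min. Over all tested genes these medians were 0.07, 0.02 and -0.04. Without clean air mouse 2 the medians of the members against clean air were 0.03 at 30 min and 0.10 at 120 min, and without 120 min mouse 2 the median at 120 min against 30 min was 0.04. At 120 min, 43 of 53 members had a fitted value above clean air, where 53.0% of all genes did.

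**Figure D2:**
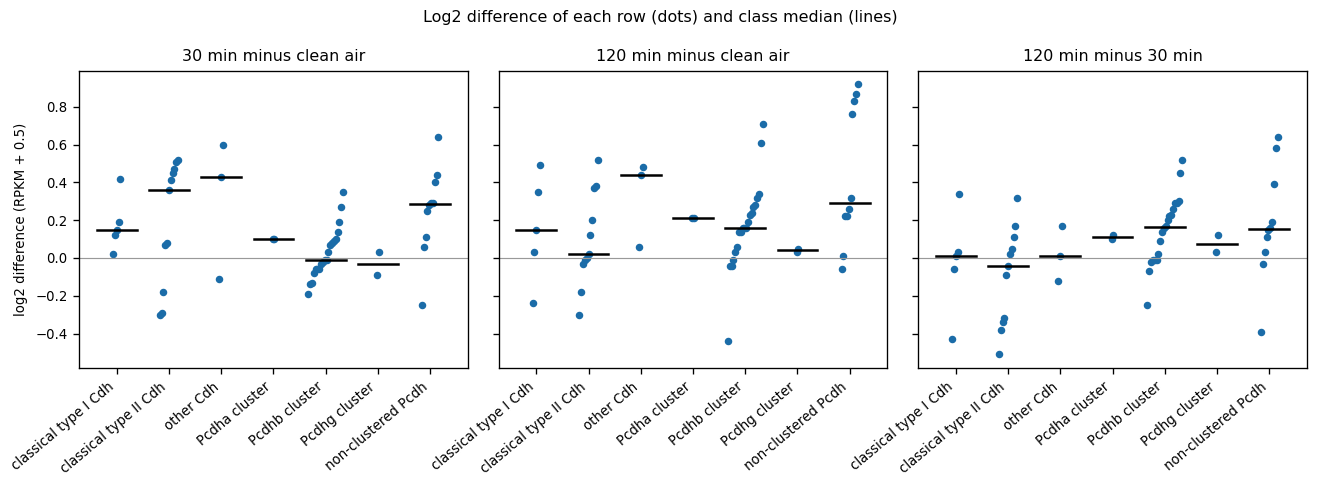
Fitted log2 difference of each member in the 3 comparisons, by class, with a line at each class median. No dot passes 1 in either direction, and at 120 min minus clean air the highest dots belong to Pcdh11x at 0.92, Pcdh1 at 0.87, Pcdh19 at 0.83 and Pcdh9 at 0.76.

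Among the type I classical cadherins, Cdh2 and Cdh4 made up most of the signal. Cdh2, N-cadherin, the classical cadherin of neural tissue and of synaptic contacts, had 23.87, 29.3 and 23.67 RPKM at 30 min, 22.17, 28.72 and 22.76 RPKM at 120 min and 22.9, 20.9 and 14.28 RPKM in clean air. The 30 min values all lay above the clean air values, by 0.42 ± 0.2 on the log2 scale (SE of the limma fit, adjusted p = 0.844), and the 120 min values overlapped them. Cdh4, R-cadherin, which is expressed in the brain and retina, had 19.07, 13.55 and 15.25 RPKM at 30 min, 20.36, 19.46 and 20.72 RPKM at 120 min and 24.29, 7.25 and 16.03 RPKM in clean air. The clean air mice spanned both odor groups for this gene, with mouse 1 the highest and mouse 2 the lowest of all 9. Cdh3, P-cadherin, first described in placenta, averaged 2.74 ± 0.148 RPKM at 30 min and 1.92 ± 0.364 RPKM at 120 min, against 2.35 ± 0.415 RPKM in clean air (SD, n = 3 each). Its 120 min values lay wholly below its 30 min values, with a log2 difference of -0.43 (limma adjusted p = 0.998). Cdh1, the epithelial E-cadherin, averaged 1.29 RPKM over the 9 mice, and Cdh15, the M-cadherin of muscle, also known from the cerebellum, 0.891 RPKM. The median log2 difference of the 5 genes was 0.15 at 30 min and 0.15 at 120 min against clean air, and 0.01 at 120 min against 30 min.

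Type II cadherins covered a wide range, with Cdh22 at the top. Cdh22, a cadherin described in rat pituitary and brain, had 39.85, 33.49 and 43.23 RPKM at 30 min, 52.0, 41.73 and 51.62 RPKM at 120 min and 42.43, 43.68 and 58.36 RPKM in clean air. It had one of the largest negative differences at 30 min against clean air, at -0.30 ± 0.18 (SE of the limma fit, adjusted p = 0.848), with 1 of the 30 min mice above the lowest clean air mouse, and -0.15 without clean air mouse 3. Cdh20 averaged 13.1 ± 0.901 RPKM at 30 min and 14.9 ± 1.9 RPKM at 120 min, against 14.9 ± 0.694 RPKM in clean air (SD, n = 3 each). Cdh24 had 10.54, 8.79 and 9.89 RPKM at 30 min, 9.47, 11.89 and 10.29 RPKM at 120 min and 11.69, 12.38 and 11.97 RPKM in clean air. Its 30 min values lay wholly below the clean air values, by a log2 difference of -0.29 (limma adjusted p = 0.848).

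Cdh10 had its lowest mean at 120 min, with 9.49, 11.87 and 10.22 RPKM at 30 min, 7.14, 9.6 and 7.23 RPKM at 120 min and 11.82, 9.61 and 8.44 RPKM in clean air. The groups overlapped between 120 min and both others, with log2 differences of -0.30 against clean air and -0.38 against 30 min (limma adjusted p = 0.685 and 0.998). The one against clean air was -0.18 without clean air mouse 1. Cdh19, known from glia of peripheral nerves, had 3.3, 4.65 and 3.6 RPKM at 30 min, 2.45, 4.29 and 2.43 RPKM at 120 min and 1.94, 3.75 and 2.11 RPKM in clean air. Mouse 2 was the highest in each group for this gene, and the difference at 30 min was 0.52 ± 0.28 on the log2 scale (SE of the limma fit, adjusted p = 0.848). The summed markers of olfactory ensheathing cells, the glia of the olfactory nerve, were likewise highest in mouse 2 of each group, although Npy among the 3 markers was highest in mouse 3 at 120 min, and summed to 217 to 258 RPKM at 30 min, 190 to 260 RPKM at 120 min and 163 to 312 RPKM in clean air. The part of such cells in the values of Cdh19 was not tested.

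Cdh5, the VE-cadherin of blood vessel walls, had 7.57, 6.44 and 7.09 RPKM at 30 min, 6.02, 8.24 and 7.26 RPKM at 120 min and 7.34, 5.79 and 3.62 RPKM in clean air. In clean air mouse 3, which had the lowest Cdh5, the endothelial markers Pecam1, Kdr and Tek were also the lowest of the 9, at 4.11, 1.04 and 1.43 RPKM, while Cldn5 was the highest, at 86.88 RPKM. The sum of the 6 endothelial and mural markers was 73.6 to 114 RPKM at 30 min, 88.5 to 106 RPKM at 120 min and 103 to 113 RPKM in clean air, most of it Cldn5. The part of such cells in the values of Cdh5 was not tested. In whole bulbs, fewer cells of a type and less RNA per cell cannot be told apart. Of the others, Cdh6, Cdh11, Cdh18 and Cdh8 averaged 7.3, 4.11, 2.69 and 1.55 RPKM over the 9 mice. For the 11 type II genes the median log2 difference was 0.36 at 30 min against clean air, 0.02 at 120 min against clean air and -0.04 at 120 min against 30 min. The value at 30 min was 0.22 under a floor of 1 RPKM, which removes Cdh12, and 0.10 without clean air mouse 3. The value of 0.02 was -0.02 after centring each library on its median.

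Of the cadherins outside the classical types, Pcdh21 was the most abundant. Pcdh21 is the older symbol of Cdhr1, the photoreceptor cadherin, which in the bulb marks mitral and tufted cells. It had 137.97, 178.66 and 158.9 RPKM at 30 min, 170.58, 156.26 and 149.84 RPKM at 120 min and 150.26, 122.94 and 86.75 RPKM in clean air. Clean air mouse 3 was the lowest of the 9 for Pcdh21. The other 5 mitral and tufted markers were mixed there: Eomes was also the lowest of the 9, at 46.48 RPKM, Tbx21 and Reln were low, at 16.52 and 39.76 RPKM, and Doc2g and Slc17a7 were the highest of the 9, at 726.1 and 521.25 RPKM. The part of such cells in the values of Pcdh21 was not tested. The log2 difference was 0.43 ± 0.2 at 30 min and 0.44 ± 0.2 at 120 min (SE of the limma fit, adjusted p = 0.844 and 0.551). Without clean air mouse 3 these differences were 0.21 at 30 min and 0.22 at 120 min.

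Cdh13, T-cadherin, is held in the membrane by a lipid anchor and has no domain inside the cell. It had 19.55, 15.09 and 23.44 RPKM at 30 min, 17.49, 14.06 and 21.87 RPKM at 120 min and 16.42, 8.6 and 13.58 RPKM in clean air. Mouse 2 was the lowest in each group, and clean air mouse 1 lay above the lowest mouse of both odor groups. The log2 difference at 30 min was 0.60 ± 0.26 (SE of the limma fit, unadjusted p = 0.0439, adjusted p = 0.844), and 0.34 without clean air mouse 2. Cdh23 averaged 1.96 RPKM and Pcdh15, a non-clustered member, 1.82 RPKM over the 9 mice. Together they form the tip links of hair cells in the inner ear.

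The alpha and gamma clusters cannot be read as single isoforms here. In both clusters each variable first exon is spliced to the same 3 constant exons, and in the GENCODE M21 annotation all 14 alpha genes share 3 exons and all 22 gamma genes share 3 exons. The sources used here do not say how reads on shared exons were assigned. The table holds 1 alpha row under the symbols Pcdha3, Pcdha1, Pcdha7, Pcdha5 and Pcdha8, and 1 under Pcdha6. The row of 5 symbols, at 16.6 RPKM on average, was 1.64 to 1.78 times the Pcdha6 row in each of the 9 mice. The summed alpha level was 26.0, 29.39 and 22.59 RPKM at 30 min, 24.67, 34.3 and 25.76 RPKM at 120 min and 22.91, 30.0 and 20.12 RPKM in clean air. Mouse 2 was the highest in every group, and the groups overlapped.

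The gamma rows were the most abundant of the family, with median log2 differences of -0.03 at 30 min and 0.04 at 120 min against clean air. The row under Pcdhga3 had 374.11, 315.3 and 411.01 RPKM at 30 min, 336.0, 415.54 and 447.14 RPKM at 120 min and 352.43, 296.77 and 562.02 RPKM in clean air. Clean air mouse 3 was the highest and clean air mouse 2 the lowest of the 9. The row under Pcdhga2 averaged 157 ± 15.5 RPKM at 30 min and 162 ± 28.7 RPKM at 120 min, against 155 ± 14.8 RPKM in clean air (SD, n = 3 each). Its log2 difference was 0.03 with a 95% interval of -0.36 to 0.41 at 30 min, and 0.05 with an interval of -0.33 to 0.44 at 120 min. The ratio of the first row to the second ran from 1.99 to 3.28 over the mice, with the highest value in clean air mouse 3.

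The beta genes, unlike the others, have no shared constant exons: 18 of the 22 beta genes in GENCODE M21 consist of a single exon. Their coding sequences resemble each other closely, so reads could be split or lost between neighbours, and the sources used here do not say how reads with several matches were handled. Their gene numbers follow their order along the cluster. The 20 beta members ranged from 0.991 RPKM for Pcdhb19 to 5.13 RPKM for Pcdhb17, with Pcdhb9 at 4.89 and Pcdhb20 at 4.63 RPKM. At the start of the cluster Pcdhb1 was nearly absent, at 0.09, 0.03 and 0.04 RPKM in the 30 min mice and 0 in all other mice, values under those of 3 counts on a transcript of 3 kb.

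Pcdhb17 had 5.01, 5.63 and 3.99 RPKM at 30 min, 5.01, 6.39 and 6.43 RPKM at 120 min and 4.36, 4.34 and 5.04 RPKM in clean air. Pcdhb10 had 1.9, 2.87 and 3.19 RPKM at 30 min, 4.19, 3.26 and 3.78 RPKM at 120 min and 2.61, 1.62 and 2.09 RPKM in clean air. Its 120 min values lay wholly above both other groups. The log2 difference of Pcdhb10 was 0.71 ± 0.24 at 120 min against clean air (SE of the limma fit, unadjusted p = 0.0129, adjusted p = 0.399). Pcdhb20 had its lowest mean at 120 min, with 3.5, 5.42 and 5.12 RPKM at 30 min, 4.73, 4.07 and 2.78 RPKM at 120 min and 5.72, 4.52 and 5.78 RPKM in clean air, a log2 difference of -0.44 at 120 min (limma adjusted p = 0.615), and -0.25 without 120 min mouse 3. Pcdhb2 averaged 0.907 ± 0.458 RPKM at 30 min and 1.47 ± 0.349 RPKM at 120 min, against 0.817 ± 0.361 RPKM in clean air (SD, n = 3 each). The median log2 difference of the 20 genes was -0.01 at 30 min and 0.16 at 120 min against clean air, and 0.17 at 120 min against 30 min.

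**Figure D3:**
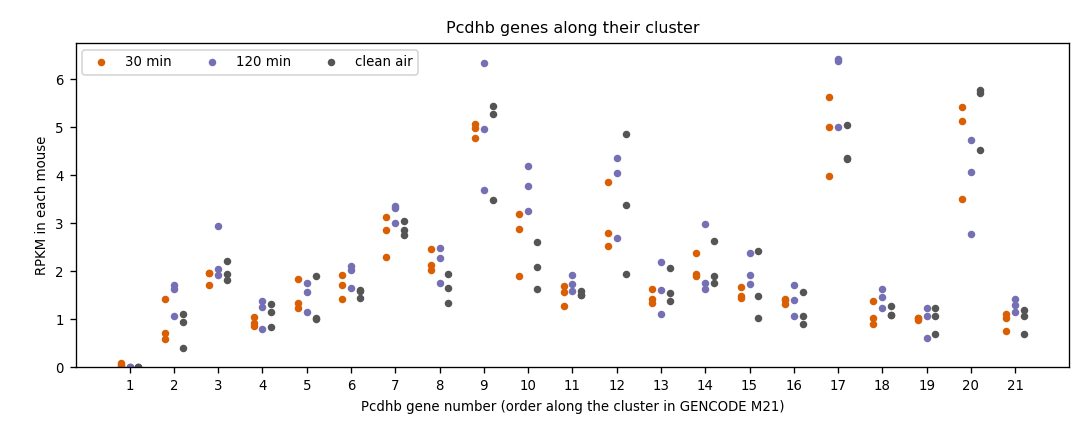
RPKM in each mouse of the beta protocadherins, by gene number, which is their order along the cluster in GENCODE M21. Pcdhb9, Pcdhb17 and Pcdhb20 reach the highest values, Pcdhb1 lies at or near 0, and the 3 groups overlap in most genes.

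The non-clustered protocadherins held the largest fitted differences of the family at 120 min against clean air. Of the 10 genes, 9 had a fitted value above clean air at 30 min and 9 at 120 min, where 61.0% and 53.0% of all genes did. At 120 min against clean air, 4 had an unadjusted limma p under 0.05, where 9.35% of all genes did. Median log2 differences of the class against clean air were 0.28 at 30 min and 0.29 at 120 min. Both medians were 0.16 without clean air mouse 2. Pcdh1, of the delta-1 subgroup and also known from human airway epithelium, had 65.01, 78.93 and 67.1 RPKM at 30 min, 93.17, 105.48 and 116.96 RPKM at 120 min and 42.91, 51.38 and 84.22 RPKM in clean air. Every 120 min mouse lay above every mouse of the other groups. The log2 difference of Pcdh1 was 0.87 ± 0.23 at 120 min against clean air (SE of the limma fit, unadjusted p = 0.00316, adjusted p = 0.349) and 0.58 ± 0.23 at 120 min against 30 min (adjusted p = 0.998). Leaving out 1 mouse at a time gave 0.67 to 1.15 at 120 min against clean air, and the adjusted p ran from 0.0749 to 0.71 over all alternatives.

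Pcdh11x, an X-linked gene of the same subgroup as Pcdh1, had 4.12, 4.84 and 3.83 RPKM at 30 min, 7.99, 8.03 and 5.08 RPKM at 120 min and 6.93, 3.28 and 1.62 RPKM in clean air. The clean air mice spanned the 30 min group and reached into the 120 min group. The log2 difference at 120 min against clean air was 0.92 ± 0.38 (SE of the limma fit, adjusted p = 0.497), and 0.48 without clean air mouse 3. Pcdh9, of the same subgroup, had 16.74, 17.28 and 12.65 RPKM at 30 min, 18.37, 18.42 and 13.75 RPKM at 120 min and 16.88, 9.05 and 5.86 RPKM in clean air. Clean air mouse 1 lay among the odor mice for Pcdh9, and the other clean air mice lay below them all. Its log2 differences were 0.64 ± 0.31 at 30 min and 0.76 ± 0.31 at 120 min (SE of the limma fit, adjusted p = 0.844 and 0.497), and the one at 30 min was 0.30 without clean air mouse 3.

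Pcdh19, whose human counterpart is an X-linked epilepsy gene, had 4.29, 3.79 and 3.59 RPKM at 30 min, 5.32, 4.94 and 5.49 RPKM at 120 min and 4.3, 1.44 and 3.09 RPKM in clean air. The 120 min values lay wholly above both other groups, and clean air mouse 2 was the lowest of the 9. The log2 difference of Pcdh19 at 120 min against clean air was 0.83 ± 0.29 (SE of the limma fit, unadjusted p = 0.0162, adjusted p = 0.419), and 0.47 without clean air mouse 2. Pcdh18 had its highest levels at 30 min, with 2.74, 2.97 and 2.99 RPKM there, 1.98, 2.39 and 1.94 RPKM at 120 min and 2.38, 2.19 and 1.71 RPKM in clean air. Its log2 difference was 0.40 at 30 min against clean air and -0.39 at 120 min against 30 min (limma adjusted p = 0.844 and 0.998). Pcdh20 and Pcdh17 averaged 9.92 and 9.35 RPKM over the 9 mice.

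**Figure D4:**
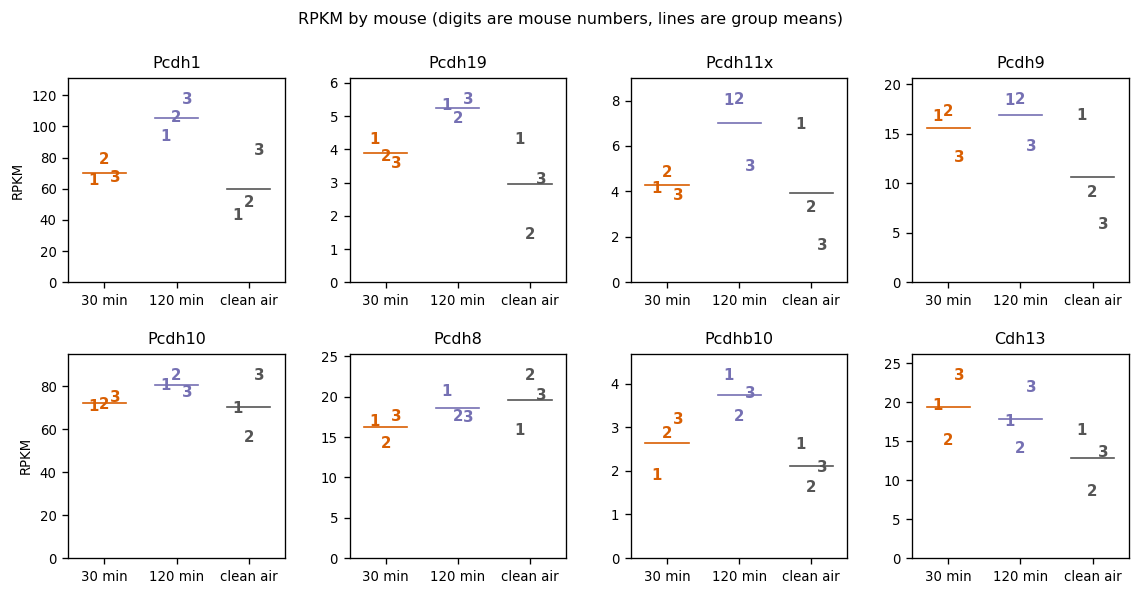
RPKM of 8 named members in each mouse, with the mouse number as the symbol and a line at each group mean, for 30 min, 120 min and clean air. All 120 min mice lie above all others for Pcdh1, Pcdh19 and Pcdhb10, while the clean air mice are widely spread for Pcdh11x and Pcdh9.

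Pcdh8 and Pcdh10 are the members best known for a link to neuronal activity. Pcdh8 was described in rat hippocampus as arcadlin, a protocadherin induced by strong synaptic activity that binds N-cadherin and takes it into the cell. In the bulb Pcdh8 had 16.99, 14.21 and 17.53 RPKM at 30 min, 20.67, 17.58 and 17.41 RPKM at 120 min and 15.83, 22.62 and 20.21 RPKM in clean air. The groups overlapped in all comparisons. The log2 difference of Pcdh8 was -0.25 with a 95% interval of -0.64 to 0.13 at 30 min against clean air (limma adjusted p = 0.86), and -0.06 with an interval of -0.45 to 0.32 at 120 min (adjusted p = 0.943). The value at 30 min was -0.14 without clean air mouse 2, and the value at 120 min was 0.03 with library weights and 0.05 without clean air mouse 2. Pcdh10, a target of the activity-regulated factor MEF2 in mouse neurons, where it takes part in the removal of synapses, had 70.54, 71.58 and 74.66 RPKM at 30 min, 80.56, 84.87 and 76.97 RPKM at 120 min and 69.58, 56.2 and 84.98 RPKM in clean air. The clean air mice spanned both odor groups, and the log2 difference was 0.06 with a 95% interval of -0.30 to 0.42 at 30 min and 0.22 with an interval of -0.14 to 0.58 at 120 min.

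The promoters of these 2 genes and of Pcdh19 are shown with the cyclic AMP response element and AP-1 motifs as the only sites searched for. MEF2 sites were not searched for. The alpha and gamma rows were left out of the search. RefSeq promoters of the build GRCm38.p6, from 250 bases before to 50 bases after the gene start, were found for 19 of the 53 members. They were searched on both strands for the cyclic AMP response element TGACGTCA, its shorter core TGACG, which the full site contains, and the AP-1 site TGACTCA. Capitals mark TGACG, and each sequence is 5′ to 3′ on the gene's own strand.
Pcdh8, chr14:79771263-79771562, minus strand: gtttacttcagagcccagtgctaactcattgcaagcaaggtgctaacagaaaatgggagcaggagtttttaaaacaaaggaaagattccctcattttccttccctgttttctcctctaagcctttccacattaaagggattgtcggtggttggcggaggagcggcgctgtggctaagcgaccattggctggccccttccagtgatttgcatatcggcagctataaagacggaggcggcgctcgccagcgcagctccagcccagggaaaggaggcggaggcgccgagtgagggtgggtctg
Pcdh10, chr3:45378148-45378447, plus strand: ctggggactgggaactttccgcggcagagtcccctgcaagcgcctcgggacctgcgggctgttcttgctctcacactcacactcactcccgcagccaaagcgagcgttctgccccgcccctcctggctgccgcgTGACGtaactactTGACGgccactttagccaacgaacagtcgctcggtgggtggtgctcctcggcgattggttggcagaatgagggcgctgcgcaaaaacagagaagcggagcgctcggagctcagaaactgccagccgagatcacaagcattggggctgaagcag
Pcdh19, chrX:133688944-133689243, minus strand: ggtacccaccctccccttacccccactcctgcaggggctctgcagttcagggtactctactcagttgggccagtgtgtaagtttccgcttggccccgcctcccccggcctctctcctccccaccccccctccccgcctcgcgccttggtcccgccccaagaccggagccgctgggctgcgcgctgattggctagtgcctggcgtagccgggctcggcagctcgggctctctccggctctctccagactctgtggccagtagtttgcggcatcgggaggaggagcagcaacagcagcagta

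The Pcdh10 promoter held TGACG at 2 places, whose first letters lie 116 and 103 bases before the gene start. The Pcdh8 and Pcdh19 windows held none of the 3 motifs. Among the 19 member genes with a promoter, TGACG was found in 3 (Cdh8, Pcdh9 and Pcdh10), and the full response element and the AP-1 site in 0. Counted by promoter, TGACG was found in 4 of 20. Over all 32851 RefSeq promoters of the same length, TGACG was found in 20.8%, the full element in 1.79% and the AP-1 site in 5.2%. A match is a description of the letters and not a measured binding site.

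The summed levels set the classes side by side, although the alpha and gamma sums may count reads on shared exons more than once. The non-clustered protocadherins summed to 200.92, 219.51 and 201.58 RPKM at 30 min, 250.53, 265.05 and 259.29 RPKM at 120 min and 179.16, 161.35 and 222.81 RPKM in clean air. All 120 min mice lay above all others for this class. Without Pcdh1 the class summed to 135.91, 140.58 and 134.48 RPKM at 30 min, 157.36, 159.57 and 142.33 RPKM at 120 min and 136.25, 109.97 and 138.59 RPKM in clean air. The 120 min mice still lay above all others, but narrowly, with 142.33 RPKM in the lowest against 140.58 RPKM in 30 min mouse 2. Pcdh10 alone held 76.97 to 84.87 RPKM of this sum at 120 min, and it reached 84.98 RPKM in clean air mouse 3. The classical cadherins of both types averaged 148 ± 2.5 RPKM at 30 min and 157 ± 4.98 RPKM at 120 min, against 147 ± 11.9 RPKM in clean air, and the clustered protocadherins 593 ± 50.5 RPKM at 30 min and 638 ± 88.1 RPKM at 120 min, against 625 ± 153 RPKM in clean air (SD, n = 3 each). The beta genes alone summed to 43.1 ± 2.95 RPKM at 30 min and 48.6 ± 1.62 RPKM at 120 min, against 42.7 ± 6.6 RPKM in clean air. For every class except the alpha cluster, the spread between mice was largest in the clean air group.

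**Figure D5:**
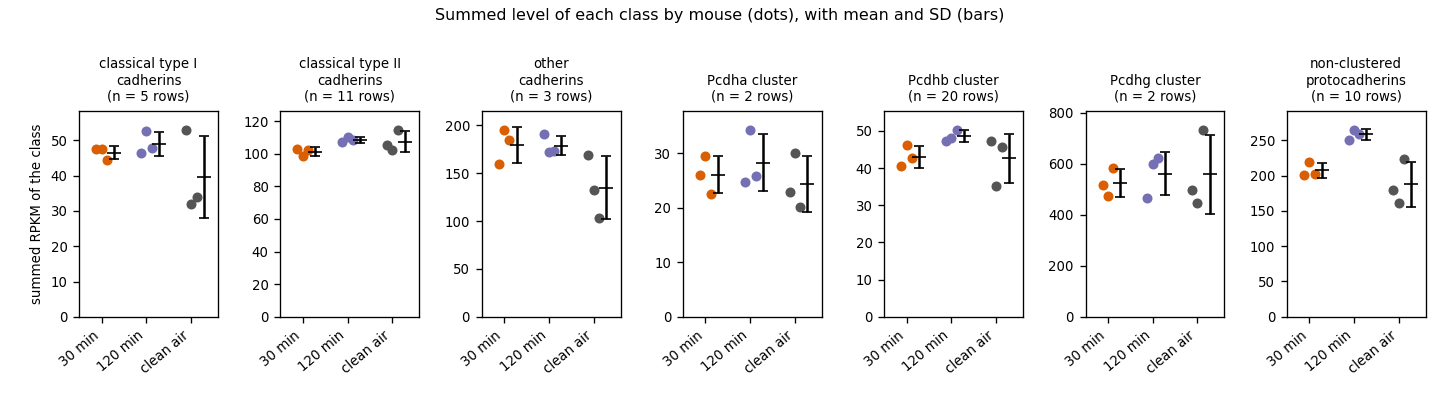
Summed RPKM of each class in each mouse, with the mean and SD of each group beside the dots, for 30 min, 120 min and clean air. The non-clustered protocadherins of the 120 min mice, at 251 to 265 RPKM, lie above both other groups, and the clean air mice are the most spread in 6 of the 7 classes.

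Genes that act with the cadherins were taken from 5 lists, and none of them was called by limma in any comparison. The lists held 10 tested catenins and linked junction proteins, 11 other genes of the cadherin superfamily, 6 proteases that cut cadherins, 14 partners of protocadherins inside the cell and 12 regulators of clustered protocadherin promoter choice. At an unadjusted p under 0.05, 7 of these 53 list genes (13.2%) stood at 30 min and 8 (15.1%) at 120 min against clean air, and 1 (1.89%) at 120 min against 30 min, where all genes gave 5.83%, 9.35% and 3.44%. Among the catenins, Ctnnb1, which encodes beta-catenin, averaged 149 RPKM and Jup, plakoglobin, 113 RPKM over the 9 mice. Vcl, vinculin, which ties the catenin complex to actin, had 12.77, 11.73 and 10.51 RPKM at 30 min, 22.86, 14.58 and 21.65 RPKM at 120 min and 13.42, 9.52 and 8.01 RPKM in clean air. Its 120 min values lay above all others, and the log2 difference was 0.91 ± 0.23 against clean air (SE of the limma fit, adjusted p = 0.349). This gene was singled out after its values were seen. The median log2 difference of the 10 genes was 0.20 at 30 min and 0.22 at 120 min against clean air.

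Of the other lists, the calsyntenins Clstn1 and Clstn3, cadherin-like proteins of the synaptic membrane, averaged 243 and 99.1 RPKM. Ncstn, nicastrin, which encodes a subunit of the gamma-secretase complex, averaged 26.6 RPKM. Ptk2b, the kinase PYK2 that protocadherins of the alpha and gamma clusters bind and hold in check, averaged 142 RPKM, and Brk1, a subunit of the actin-regulating WAVE complex, 116 RPKM. Among the regulators, the cohesin genes Rad21 and Smc1a, which act in looping enhancers to clustered promoters, averaged 34.7 and 24.1 RPKM. The median log2 difference at 120 min against clean air was 0.30 for the superfamily list, 0.15 for the proteases, 0.18 for the partners and 0.05 for the regulators, against 0.02 for all tested genes. Leaving out 1 mouse gave 0.06 to 0.42 for the superfamily list, 0.01 to 0.24 for the proteases, 0.09 to 0.21 for the partners and -0.12 to 0.21 for the regulators.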

How the data were processed

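RPKM values (read counts scaled by gene length and library size) were used as deposited by the authors, with 2 decimals, for 9 libraries. Reads were aligned with Bowtie to mm9, per the submitters' processing notes; the sources used here give no version, annotation, counting rule or strand. Columns were matched to mice through codes in the labels. Depth was recovered from the spacing of RPKM values of RNAs under 200 nt, taken 34 nt shorter than annotated, of which 86.2% to 93.9% came out whole within 0.05 per library. Floors of 3 counts cover counting error only.

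Tests used limma 3.58.1 in R 4.3.3 (lmFit, eBayes with trend) on log2(RPKM + 0.5), in 1 fit over 9 libraries and the 13990 genes averaging 0.5 RPKM or more. They were two-sided, with Benjamini-Hochberg adjustment per comparison, and were checked on simulated data. A log2 difference on this scale understates the change of low genes. Errors of log2 differences are SE of the fit, and errors of RPKM are SD over mice. Members, lists and the rule for named genes were chosen with earlier results of these data known. The rule took the 2 most abundant members of each class, the 3 largest differences in each direction among genes of at least 1 RPKM, and Pcdh8 and Pcdh21. Marker lists covered 13 cell types, and their sums are given where they touch a member. The values of 1 gene of the protease list are not reported here.

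The mouse numbers used here are those of the sample titles, and they are shared between groups. The codes in the labels carry other numbers for some mice. Same-numbered mice of the 30 min and 120 min groups have matching code numbers. Most clean air mice have a code number that differs from that of the same-numbered odor mice. Deviations of same-numbered mice correlated at 0.271, 0.355 and 0.135 between 30 min and clean air. They correlated at 0.0751 to 0.37 between 120 min and clean air, and at 0.0648 to 0.402 between 120 min and 30 min. Mice with different numbers gave -0.34 to 0.0841. Deviations from a group mean cancel within the group, so higher values for same-numbered mice force lower ones for the rest. The second range is therefore not a separate contrast. The labels do not say what a mouse number or a code number marks, so whether either pairs the mice is not known. All printed differences come from the fit without a block for mouse number, and a fit with the block was run as an alternative.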

Additional observations from a re-analysis of the deposited data

How the results depend on the processing

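No cadherin or protocadherin was called under any alternative run (pseudocounts of 0.1 and 1, a floor of 1 RPKM or none, centring, quantile normalization, library weights, fits of 2 groups, a block for mouse number, or leaving out each mouse), and the lowest adjusted p of a member was 0.0749, for Pcdh1 at 120 min without clean air mouse 3. With the replicate block, 23, 8 and 10 genes in all were called at 30 min against clean air, 120 min against clean air and 120 min against 30 min, against 19, 12 and 8 without it, and the F test called 20 against 22. The block changed no call of a member. Fits to 2 groups called 12 genes at 30 min and 3 at 120 min against clean air. Leaving out 1 mouse gave 0 to 14 genes at 120 min against clean air, with 0 without clean air mouse 2 (1166 at an unadjusted p under 0.05) and 0 without 120 min mouse 3 (935), and 13 to 20 genes in the F test. With 1 mouse left out, the type I median ran from 0.07 to 0.34 at 30 min and from -0.02 to 0.42 at 120 min against clean air, type II from 0.10 to 0.37 and from -0.02 to 0.24, and the other cadherins from 0.21 to 0.61 and from 0.22 to 0.62. The beta median ran from -0.09 to 0.08 and from 0.08 to 0.20, and the gamma median from -0.14 to 0.14 and from -0.07 to 0.21. The type II median at 30 min was 0.22 with a floor of 1 RPKM. The sign turned for 1 named difference, Pcdh8 at 120 min, which was 0.03 with library weights and ran from -0.20 to 0.05 when 1 mouse was left out. Of the class and list medians, 701 of 720 values moved by less than the SD between mice, and 376 of 378 single-gene values kept their side. Many of these values could not have moved far. Leaving out a mouse of the group outside a comparison cannot move its difference, nor can the balanced block for mouse number. Leaving out 1 of the 3 mice of a compared group moves its mean by only part of the spread. The counts therefore do not measure how stable the results are. The causes of the shifts were not tested. With 3 mice a group, a log2 difference had to exceed 0.339 to 0.847, depending on the gene, for its 95% interval to leave out 0.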
